A study of Rattus norvegicus with 20 samples.

Results

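The choroid plexus genes Ttr, Kl, Folr1, Sostdc1, Tmem72, Otx2, Clic6, Kcnj13 and Aqp1 were followed through hippocampal RNAseq of 4-month female rats. These 9 genes were taken by symbol from the 17168 genes of each table, and all 9 were found in both the genotype and the treatment tables. They are markers of choroid plexus epithelium. In 18 of the 20 rats Ttr held no more than 127 counts and each other member no more than 40, and in a pair of treated rats, TGTR replicates 5 and 6, they stood apart from the others.

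The choroid plexus is a sheet of epithelium over a vascular, fibroblast-rich stroma that hangs into the brain ventricles and secretes cerebrospinal fluid. A fold of it lies along the hippocampus in the lateral ventricle. Its epithelium is known for very high expression of transthyretin (Ttr), the carrier of thyroid hormone and retinol-binding protein that it releases into the fluid, and transthyretin is also known to bind amyloid-β. The other genes cover its main tasks: secretion and signalling (Kl, Sostdc1), vitamin uptake (Folr1), ion and water movement (Clic6, Kcnj13, Aqp1) and cell identity (Otx2).

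Promoter sequences are shown because the members were high together in those treated rats and 1 member, Otx2, encodes a homeodomain transcription factor. RefSeq promoters on the GRCr8 build, 250 bases before to 50 bases after the gene start, were at hand for 5 of the 9 members (Ttr, Kl, Tmem72, Kcnj13 and Aqp1). On both strands, none of the 5 held TAATCC, the core recognised by OTX2, which 7.17% of 33469 promoters held, and none held the homeodomain core TAATTA, which 5.36% held. The shorter TAATC, which lies within TAATCC and was added after that search, stood in 4 of the 5 (Ttr, Kl, Tmem72 and Kcnj13) against 22.9% of all promoters. TATAAA, also added, stood in Aqp1 and Kcnj13, against 14.2% of all. The 250 bases before the start of Kl and Kcnj13 are given below from 5′ to 3′, with TAATC or its reverse complement in capitals. Counted back from the gene start, the first base of the match lay at -93 in Kl and, on the reverse strand, at -243 in Kcnj13. The bases before Kl were 73.2% G or C and those before Kcnj13 were 46.8%. A match of letters is a description of the window and not a binding site.
Kl: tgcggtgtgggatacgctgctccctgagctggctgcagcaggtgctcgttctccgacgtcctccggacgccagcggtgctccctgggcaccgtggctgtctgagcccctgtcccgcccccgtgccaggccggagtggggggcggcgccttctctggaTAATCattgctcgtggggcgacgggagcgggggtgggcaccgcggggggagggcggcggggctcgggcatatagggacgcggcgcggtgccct
Kcnj13: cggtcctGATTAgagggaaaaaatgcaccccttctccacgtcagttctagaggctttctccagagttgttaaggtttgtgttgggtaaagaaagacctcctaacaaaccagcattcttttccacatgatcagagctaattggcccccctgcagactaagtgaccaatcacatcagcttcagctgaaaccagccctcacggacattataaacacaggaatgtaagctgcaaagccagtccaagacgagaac

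The genotype comparison set 5 wild-type untreated rats (WTNT) beside 5 transgenic untreated rats (TGNT), and asked what the transgenes change at 4 months. The treatment comparison set 4 other TGNT rats beside 6 transgenic treated rats (TGTR), and asked what diazoxide (DZ) with dibenzoylmethane (DIB) changes. Transgenic rats were of the TgF344-AD line, which carries human APPsw and PS1ΔE9 under the prion promoter, so both groups of the treatment comparison carried them. TGTR rats ate chow that supplied 10 mg/kg of DZ and 200 mg/kg of DIB per day from day 52. Each rat gave 1 hippocampal library, and the labels name the left side whereas the written methods name the right. Because the tissue was sequenced in bulk, fewer cells of a type and less RNA per cell cannot be told apart.

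Libraries held 5848458 to 9926088 estimated counts in the genotype comparison and 9215039 to 14175594 in the treatment comparison. Levels are given as RPM, the reads of a gene scaled to the size of its library by the TMM method, and 1 count was worth 0.102 to 0.171 RPM in the first table and 0.0706 to 0.101 RPM in the second. The tables were scaled apart, so levels were compared only within each. A value of 3 counts or fewer was taken as the floor of detection. As a check of the labels, App lay at 1031 to 1160 RPM in WTNT and at 2071 to 2364 RPM in TGNT rats. Hippocampal neuron markers (11 of the 12 listed were in the tables) summed to at least 1822 RPM in every rat. TGTR replicate 5 had both that lowest hippocampal sum and the smallest library of its table, with 9215039 counts.

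The members took a small share of each library in all rats but 2. In the genotype comparison all 9 together made up 0.000234% to 0.00168% of counts. In the treatment comparison they made up 0.000405% to 0.00175% in 8 rats, 0.0139% in TGTR replicate 6 and 0.315% in TGTR replicate 5. Of that share in replicate 5, Ttr alone was 0.269% of counts. Outside those rats, 48 of the 80 values of the 8 members other than Ttr in the genotype table were at or under the floor, 16 of them at 0, and so were 22 of 64 in the treatment table, 6 of them at 0.

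**Figure D1:**
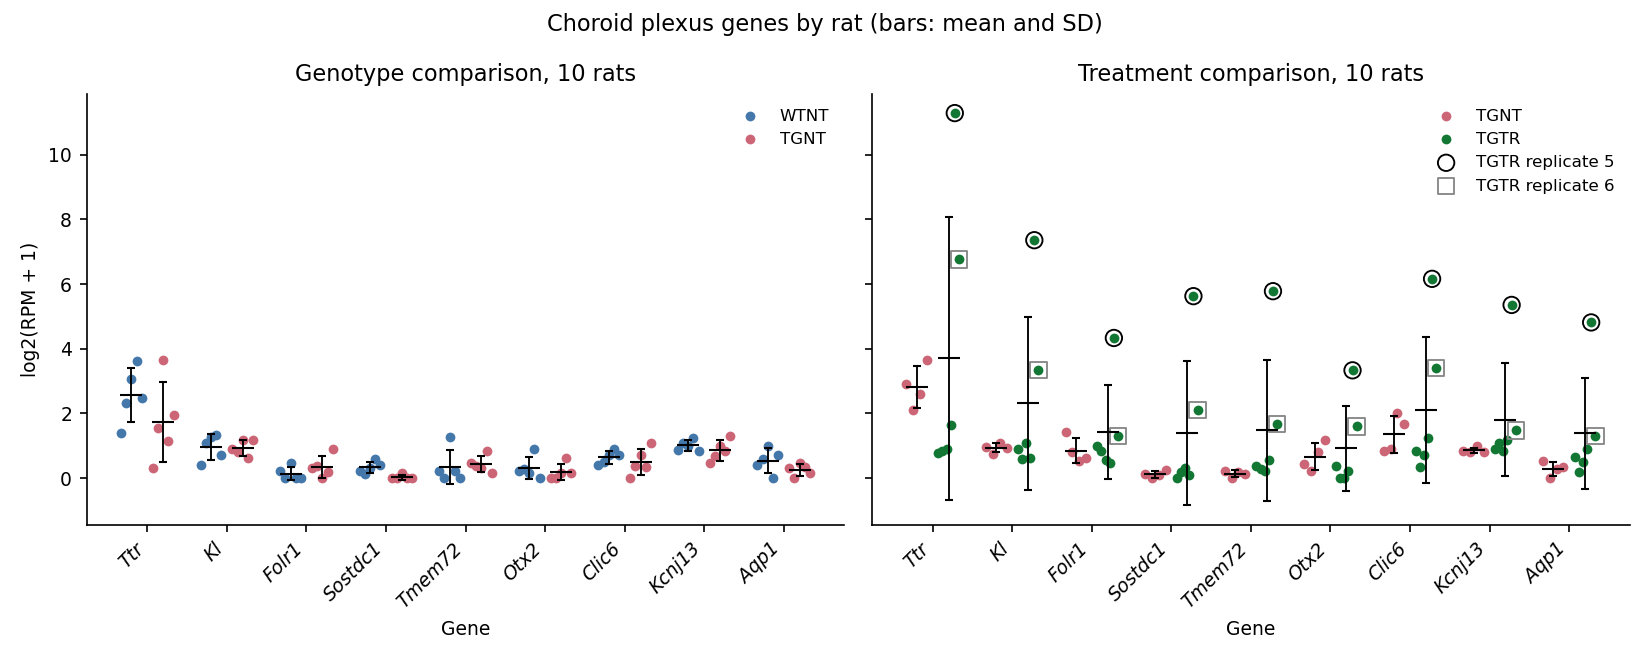
Levels of the 9 choroid plexus genes by rat, as log2(RPM + 1), in the genotype comparison (left: WTNT, 5 rats, and TGNT, 5 rats) and the treatment comparison (right: TGNT, 4 rats, and TGTR, 6 rats); 1 point is 1 rat and the bars are the mean and SD. TGTR replicate 5 (circled) is the highest rat for every gene, TGTR replicate 6 (boxed) is the next highest for every gene except Folr1, and the groups of the genotype comparison overlap for every gene.

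Between genotypes no member was called. Called means an adjusted p under 0.05 in edgeR's quasi-likelihood test with Benjamini-Hochberg adjustment over all genes, together with a fold change of at least 1.5. In this comparison 0.0116% of all genes (2 genes) were called and 0 of the 9 members, each with an adjusted p of 1. At an unadjusted p under 0.05 there was 1 member of 9, Sostdc1, against 3.23% of all genes. The RPM of the groups overlapped for all 9 members, whereas they did not overlap for 0.513% of all genes. Fitted log2 fold changes, low-count members included, were below 0 for 7 members and above 0 for 2, with a median of -0.24 (also -0.24 over the 5 members with enough counts for a fold change) against 0.01 over the 14659 genes with reads.

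Ttr varied widely within both genotype groups. WTNT replicates 1 to 5 held 10, 39, 58, 67 and 29 Ttr counts, or 1.66, 3.99, 7.35, 11.4 and 4.62 RPM. TGNT replicates 1 to 5 held 2, 13, 92, 9 and 23 counts, or 0.250, 1.96, 11.7, 1.201 and 2.87 RPM. TGNT replicate 3 thus lay near the highest WTNT rat, while the other 4 TGNT rats lay below the WTNT median of 4.62 RPM. Ttr averaged 5.81 ± 3.74 RPM (SD, n = 5) in WTNT and 3.59 ± 4.61 RPM (SD, n = 5) in TGNT, a difference smaller than the spread between rats (exact two-sided permutation test, p = 0.413). Its fitted log2 fold change was -0.66 (SE 0.63). Without TGNT replicate 3 the log2 fold change of Ttr was -1.87, with an adjusted p of 1 in the edgeR test.

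Among the secreted and receptor members, Sostdc1, a secreted antagonist of BMP and Wnt signals, had the clearest split between genotypes, on very few counts. WTNT replicates 1 to 5 held 1, 1, 2, 3 and 2 counts and TGNT replicates 1 to 5 held 0, 0, 1, 0 and 0. All 10 values lay at or under the floor, and the single TGNT count reached the level of the lowest WTNT rats. The pooled counts were 1 in TGNT and 9 in WTNT, a depth-scaled ratio of 0.106 with a 95% counting interval of 0.00241 to 0.764. Its RPM differed by the exact two-sided permutation test (p = 0.0159, n = 5 and 5, the smallest possible p being 0.00794), which carries no correction for the 9 members tested, and its edgeR adjusted p was 1. Kl, the anti-ageing co-receptor of FGF23 that is also shed as a hormone, held 2, 11, 11, 9 and 4 counts in WTNT and 7, 5, 10, 4 and 10 in TGNT. Kl averaged 1.00 ± 0.509 RPM and 0.935 ± 0.318 RPM (SD, n = 5 each), with a log2 fold change of -0.11 (SE 0.40). Folr1, the receptor that moves folate into the fluid, held 1, 0, 3, 0 and 0 counts in WTNT and 2, 2, 0, 1 and 7 in TGNT, too few for a fold change.

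The channel genes were no clearer between genotypes. Kcnj13, an inward-rectifier potassium channel, held 5, 11, 8, 8 and 5 counts in WTNT and 3, 4, 8, 6 and 12 in TGNT, or 1.03 ± 0.233 and 0.857 ± 0.428 RPM (SD, n = 5 each). Its log2 fold change was -0.24 (SE 0.38). Clic6, of the chloride intracellular channel family, averaged 0.573 ± 0.207 RPM in WTNT and 0.465 ± 0.431 RPM in TGNT (SD, n = 5 each), with a log2 fold change of -0.24 (SE 0.60). Aqp1, the water channel of the fluid-facing membrane, held 2, 5, 8, 0 and 4 counts in WTNT and 2, 0, 3, 2 and 1 in TGNT, a log2 fold change of -1.25 (SE 0.68) and an exact two-sided permutation p of 0.151 on RPM. Otx2 held 0 to 5 counts in WTNT and 0 to 4 in TGNT. Tmem72, a transmembrane protein gene, held 0 to 11 counts in WTNT and 1 to 6 in TGNT, and its 11 counts came from WTNT replicate 3 alone. Exact p-values over the 9 members ran from 0.0159 to 0.968, and none was adjusted.

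In the treatment comparison the group means of all 9 members were higher in TGTR, and for each of them the difference came from TGTR replicate 5 and, for most, replicate 6. Called genes were 0% of all genes and 0 of the 9 members, with adjusted p-values of 0.964 to 1 in the edgeR test. At an unadjusted p under 0.05 there were 6 of 9 members, all higher in TGTR (Ttr, Kl, Sostdc1, Tmem72, Kcnj13 and Aqp1), against 4.91% of all genes (843 genes). The groups overlapped in RPM for all 9 members, whereas they did not overlap for 1.15% of all genes. The median log2 fold change of the members was 4.33, against 0.00 over the 14884 genes with reads. Exact two-sided permutation tests on RPM gave p-values of 0.410 to 0.795 over the 9 members (n = 4 and 6). A difference of mean RPM is set largely by the group that holds TGTR replicate 5, so these tests say little about the other rats. On log2(RPM + 1) the same tests gave p-values of 0.143 (Tmem72) to 0.829 (Otx2).

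Ttr showed the pattern most plainly. TGNT replicates 1 to 4 held 74, 39, 67 and 127 counts, or 6.48, 3.34, 5.04 and 11.7 RPM. TGTR replicates 1 to 4 held 10, 11, 11 and 27 counts, or 0.714, 0.776, 0.888 and 2.13 RPM. TGTR replicates 5 and 6 held 24768 and 1326 counts, or 2501 and 108 RPM. So 4 TGTR rats lay below every TGNT rat and the other 2 lay above every TGNT rat. Ttr was 214-fold higher in TGTR replicate 5, and 9.20-fold higher in replicate 6, than in the highest of the 8 other rats. Its mean was 6.64 ± 3.60 RPM in TGNT (SD, n = 4) and 435 ± 1013 RPM in TGTR (SD, n = 6), with a log2 fold change of 6.05 (SE 2.29; edgeR adjusted p = 0.964) and an exact two-sided permutation p of 0.733. Without replicate 5 the log2 fold change of Ttr was 1.75 (SE 1.25), and without replicates 5 and 6 it was -2.56 (SE 0.43; unadjusted p = 7.49e-05, edgeR adjusted p = 0.457), so the direction turned with those rats. Leaving out replicates 5 and 6 was chosen after seeing the data.

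The other secreted and receptor members were high in the same rats. Sostdc1 lay at 0 to 0.242 RPM, no more than 3 counts, in the 8 other rats, at 48.5 RPM (480 counts) in TGTR replicate 5 and at 3.33 RPM (41 counts) in replicate 6. Its log2 fold change of 6.46 (SE 2.41) became 2.97 without replicate 5, and without both rats Sostdc1 had too few counts for a fold change. Kl lay between 7 and 15 counts in the 8 other rats, and held 1615 counts (163 RPM) in replicate 5 and 113 counts (9.17 RPM) in replicate 6. Kl was thus 144-fold and 8.11-fold above the highest other rat, and its log2 fold change of 4.91 (SE 1.90) became -0.30 without both rats. Folr1 held 19, 9, 6 and 6 counts in TGNT and 14, 11, 6, 5, 190 and 18 counts in TGTR. Folr1 was 11.5-fold higher in replicate 5 than in the highest other rat, but in replicate 6, at 1.46 RPM, it lay below TGNT replicate 1 at 1.67 RPM. It was the single member for which replicate 6 stood inside the range of the other rats.

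The channel genes were high in the same rats. Clic6 held 9, 10, 40 and 24 counts in TGNT and 11, 4, 8, 17, 700 and 118 counts in TGTR. That was 70.7 RPM in replicate 5 and 9.57 RPM in replicate 6, or 23.5-fold and 3.19-fold above the highest other rat. Kcnj13 kept to 0.736 to 1.26 RPM in the 8 other rats, the narrowest range of the members in proportion to its level, against 40.0 RPM (396 counts) in replicate 5 and 1.79 RPM (22 counts) in replicate 6. Aqp1 ran from 0 to 11 counts in the 8 other rats and held 269 counts (27.2 RPM) in replicate 5 and 18 counts (1.46 RPM) in replicate 6. The steps in replicate 6 over the highest other rat were 1.41-fold for Kcnj13 and 1.68-fold for Aqp1, on 22 and 18 counts.

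Otx2 and Tmem72, the transcription factor and the transmembrane protein, differed in the size of the step. Otx2 had the smallest step in replicate 5, 7.05-fold over the highest other rat, with 90 counts (9.09 RPM), and 25 counts (2.03 RPM) in replicate 6. TGNT rats held 4, 2, 10 and 14 Otx2 counts, and TGTR replicates 1 to 4 held 4, 0, 0 and 2. Tmem72 held 2, 0, 2 and 1 counts in TGNT and 4, 3, 2, 6, 535 and 27 in TGTR, a 114-fold step over the highest other rat in replicate 5 (54.0 RPM). Its log2 fold change was 6.31 (SE 2.30), and it was the 1 member still at an unadjusted p under 0.05 without replicate 5 (log2 fold change 2.51, edgeR adjusted p = 0.931). In that fit 900 of all 17168 genes were under that threshold.

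Without TGTR replicate 5 the median log2 fold change of the 9 members was 1.36, with 7 above 0 and 2 below. Without replicates 5 and 6 it was -0.30 over the 9 fitted values, and -0.32 over the 8 members other than Sostdc1, with 3 of the 8 above 0 and 5 below. In that setting 681 of all 17168 genes were at an unadjusted p under 0.05 in the edgeR test. Among them were Ttr, Otx2 and Clic6, all lower in TGTR, by -2.56, -2.40 and -1.19 on the log2 scale (unadjusted p = 7.49e-05, 0.0149 and 0.0383). Their edgeR adjusted p-values were 0.457, 1 and 1, so none passed in this fit. Tmem72, Aqp1 and Kcnj13 kept a log2 fold change above 0 (1.34, 1.04 and 0.30), with adjusted p-values of 1.

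**Figure D2:**
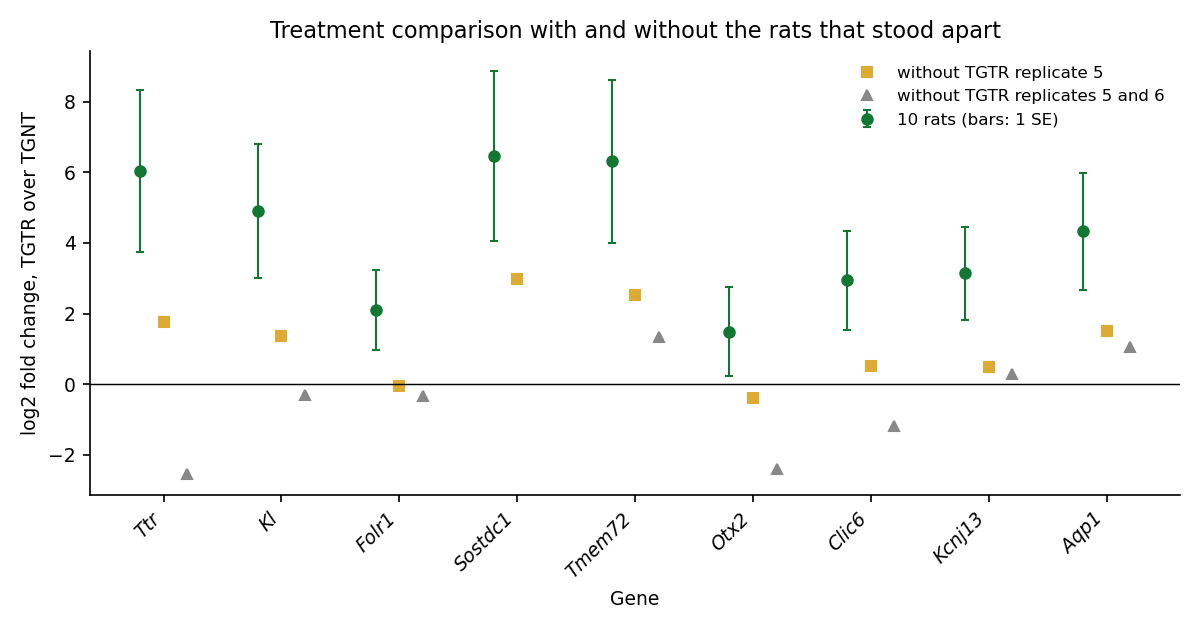
Log2 fold change of each choroid plexus gene, TGTR over TGNT, fitted on all 10 rats (circles, bars are 1 SE), without TGTR replicate 5 (squares) and without TGTR replicates 5 and 6 (triangles). All 9 circles lie above 0, between 1.49 (Otx2) and 6.46 (Sostdc1), and so do 7 of 9 squares and 3 of 8 triangles; no triangle is drawn for Sostdc1, which averaged 3 counts or fewer in both groups there.

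Co-variation of the members across rats was measured on log2(RPM + 1) over the 36 pairs of members in each table, with permutation tests adjusted over the 36 pairs. Over the 10 rats of the treatment comparison, Pearson's r ran from 0.864 to 0.996 with a median of 0.954, and all 36 pairs passed an adjusted p of 0.05. Spearman's rho, which uses ranks alone, had a median of 0.446 and 5 of 36 pairs passed. Leaving out the rats farthest from the median of Ttr, which were TGTR replicates 5 and 6, gave a median r of -0.03 with a range of -0.62 to 0.88, and 0 of 36 pairs passed. The pooled correlations thus rested on those rats. After each group's mean was subtracted, 35 of 36 pairs still passed with those rats included, with a median r of 0.963.

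The pairs that ranked alike were Ttr with Otx2 (rho = 0.863), Ttr with Clic6 (rho = 0.855), Otx2 with Clic6 (rho = 0.875), Tmem72 with Kcnj13 (rho = 0.879) and Tmem72 with Aqp1 (rho = 0.867), each with a permutation p of 0.0179 after adjustment. Over the 8 remaining rats Ttr kept r = 0.838 with Otx2 and r = 0.687 with Clic6, with permutation p-values of 0.111 and 0.453 after adjustment. Ttr with Kcnj13 and Ttr with Tmem72 were -0.41 and -0.42 over those 8 rats. In the genotype comparison the median r of the 36 pairs was 0.226, from -0.49 to 0.899, and 1 pair, Clic6 with Kcnj13, passed (r = 0.899, permutation p = 0.0148 after adjustment). None passed by Spearman's rho, nor without TGNT replicates 1 and 3, the rats farthest from the median of Ttr. Ttr in that table had r = 0.734 with Clic6, 0.711 with Sostdc1, 0.681 with Kcnj13 and 0.666 with Kl, none of which passed adjustment (permutation p = 0.247, 0.247, 0.264 and 0.272).

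**Figure D3:**
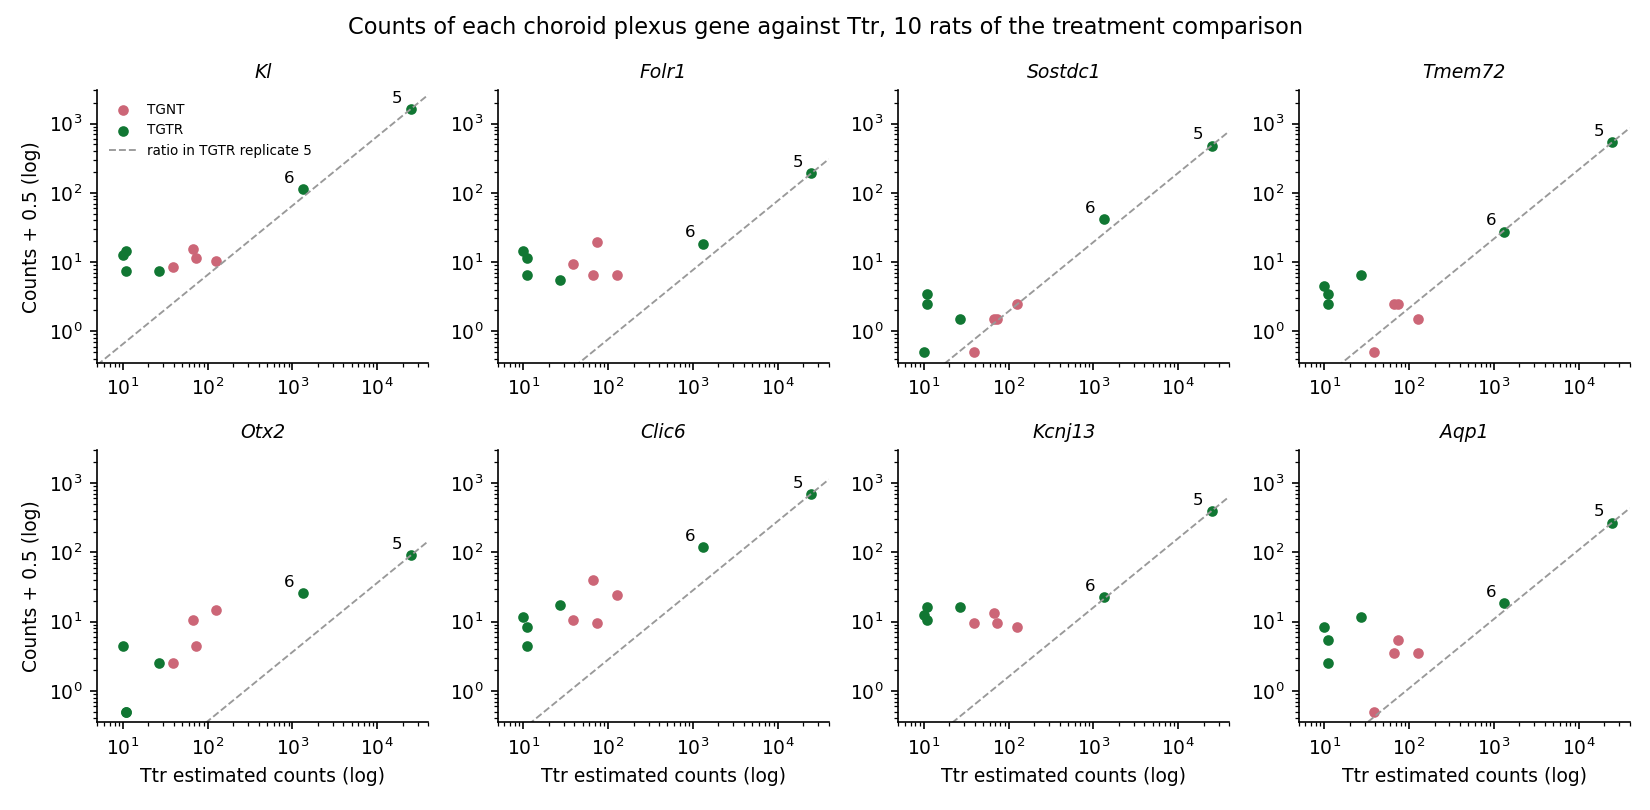
Estimated counts of each member plus 0.5 against those of Ttr in the 10 rats of the treatment comparison, both axes on a log scale; the dashed line is the ratio to Ttr in TGTR replicate 5, and replicates 5 and 6 are numbered. Replicate 6 lies near the line for Tmem72, Kcnj13 and Aqp1 and above it for Otx2 and Clic6. The sums of TGNT and of TGTR replicates 1 to 4, which are not drawn, both exceed that ratio for Kl, Folr1, Otx2, Clic6, Kcnj13 and Aqp1.

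The proportions of the members were compared between those treated rats as counts per 100 Ttr counts in the same rat, which needs no scaling for depth. For Tmem72 they were 2.16 in replicate 5 and 2.04 in replicate 6, for Kcnj13 1.60 and 1.66, for Aqp1 1.09 and 1.36, and for Kl 6.52 and 8.52. At the ratios of replicate 5, the 1326 Ttr counts of replicate 6 would go with 28.6 Tmem72, 21.2 Kcnj13 and 14.4 Aqp1 counts. The counts found were 27, 22 and 18, and all 3 numbers lay inside the 95% counting intervals of the counts found (17.8 to 39.3, 13.8 to 33.3 and 10.7 to 28.4). Kl, Sostdc1 and Folr1 were 1.31, 1.60 and 1.77 times the number so set, and it lay just below their intervals. Otx2, at 25 counts against 4.82, and Clic6, at 118 against 37.5, were the furthest from it, at 5.19 and 3.15 times. The intervals cover the counting error of replicate 6 only. These are raw counts, which hold the level present in every rat: Kcnj13 held 8 to 16 counts in the 8 other rats beside its 22 in replicate 6. Once the median RPM of those 8 rats was subtracted from both, the excess of replicate 6 was 4.197% of that of replicate 5 for Ttr. On this measure Aqp1 (4.18%), Folr1 (4.31%), Tmem72 (3.76%) and Kl (5.11%) lay nearest to Ttr, Kcnj13 (2.43%) lay below it, and Sostdc1 (6.70%), Clic6 (12.5%) and Otx2 (20.3%) lay above it.

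The remaining 8 rats were set beside the same proportions by group, a split chosen after seeing the data, since their Ttr counts differed: 307 in all in TGNT and 59 in TGTR replicates 1 to 4. In TGNT, Tmem72 had 5 counts against 6.63 at the ratio of replicate 5 and Sostdc1 had 4 against 5.95, and both numbers lay inside the 95% counting intervals of the counts found (1.62 to 11.7 and 1.09 to 10.2). The other 6 members exceeded the number so set beyond their intervals in TGNT, from 2.20 times for Kl and 3.30 for Aqp1 to 17.0 for Folr1 and 26.9 for Otx2. In TGTR replicates 1 to 4, all 8 members exceeded it beyond their intervals, with Sostdc1 at 5.25 times (6 counts), Kl at 10.4 and Tmem72 at 11.8 times (15 counts) the lowest. Over the 10 rats of the genotype comparison the same quantity was 1.51 for Sostdc1, with 6.63 inside its interval of 4.80 to 18.4 around 10 counts, and 3.27 (Kl) to 12.8 (Kcnj13) for the other 7 members, all beyond their intervals.

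Other markers of the choroid plexus were highest in the same rat. A wider list of 36 such genes was used which, like the other marker lists, was chosen with earlier results of these data known. Of the 36, 32 were in the table, and 30 of the 32 were higher in TGTR replicate 5 than in all 9 other rats. Of the 32, 24 were at least 2-fold above the highest of the 8 rats other than replicate 6. Their summed level was 2218 RPM in replicate 5, 482 RPM in replicate 6 and 369 to 437 RPM in the other 8 rats. F5 (coagulation factor V) stood at 117 and 6.41 RPM in replicates 5 and 6, against at most 1.66 RPM in the 8 others. Cldn2 (a tight junction protein) stood at 48.8 and 3.65 RPM against at most 1.58 RPM, and Slc4a5 (a bicarbonate transporter) at 51.2 and 3.81 RPM against at most 1.31 RPM. In replicate 6, 14 of the 32 were above the 8 others and 4 were at least 2-fold above them, with F5, Cldn2 and Slc4a5 among those 4. The median ratio of replicate 6 to the highest of the 8 others was 0.924 over this list. As with the members, 0 of the 32 were called, 4 were higher and 0 lower at an unadjusted p under 0.05, and their median log2 fold change of 0.99 became 0.05 without replicate 5 and -0.13 without both rats. Between genotypes 0 of the 32 were called, 1 was higher and 2 were lower at an unadjusted p under 0.05, and the median was -0.04.

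Fibroblast and meningeal markers, which the stroma of the choroid plexus and the brain coverings share, were high with the members in replicate 5. They were not seen above the 8 other rats in replicate 6. All 12 were higher in replicate 5 than in every other rat and 10 of them by at least 2-fold, with a sum of 517 RPM against 62.6 to 107 RPM in the 8 others. Among them were Col1a2 (136 RPM, 5.55-fold above the next rat) and Ogn (61.2 RPM, 7.75-fold), both genes of extracellular matrix. In replicate 6 the sum was 67.8 RPM, inside the range of the others, and 0 of 12 were above the 8 other rats. For Ttr the excess of replicate 6 was 4.197% of that of replicate 5. Whether these markers rose by that share in replicate 6 was not tested. Of the 11 ependymal genes, which mark the ciliated lining of the ventricles, 6 were highest in replicate 5 but 1 by at least 2-fold, with a sum of 78.4 RPM against 39.6 to 57.5 RPM, and 48.1 RPM in replicate 6. No gene of these 3 lists was at 0 in replicate 5 or 6, and the part of these cells in the members' levels was not tested.

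The remaining marker lists were measured beside the members. Hippocampal neuron markers summed to 1822 RPM in replicate 5, below the 2183 to 2999 RPM of the 8 other rats, and to 2505 RPM in replicate 6. Markers of neurons at large summed to 3800 RPM in replicate 5, 4313 RPM in replicate 6 and 4027 to 4540 RPM in the others. Thalamus and habenula markers, a list that holds Slc17a6, which the study picked from these libraries, summed to 88.8 and 94.0 RPM in replicates 5 and 6 against 49.6 to 74.4 RPM. Their sums were higher in every TGTR rat (67.4 to 94.0 RPM) than in every TGNT rat (49.6 to 65.9 RPM). High sums were thus not particular to replicates 5 and 6. However, the study picked Slc17a6 as higher in TGTR, and it alone ran from 13.45 to 33.27 RPM in the 8 other rats. Sums without Slc17a6 were not taken, so no difference between the groups is read from this list. Endothelial markers, at 164 and 163 RPM, lay inside the range of the others (134 to 172 RPM). The upper end of that range was TGTR replicate 4 alone, and the next rat, TGTR replicate 3, lay at 153 RPM, below replicates 5 and 6. Blood markers were highest in TGTR replicate 4, at 682 RPM. In that rat the members summed to 7.26 RPM, where the 8 rats other than replicates 5 and 6 ran from 3.951 to 17.95 RPM.

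**Figure D4:**
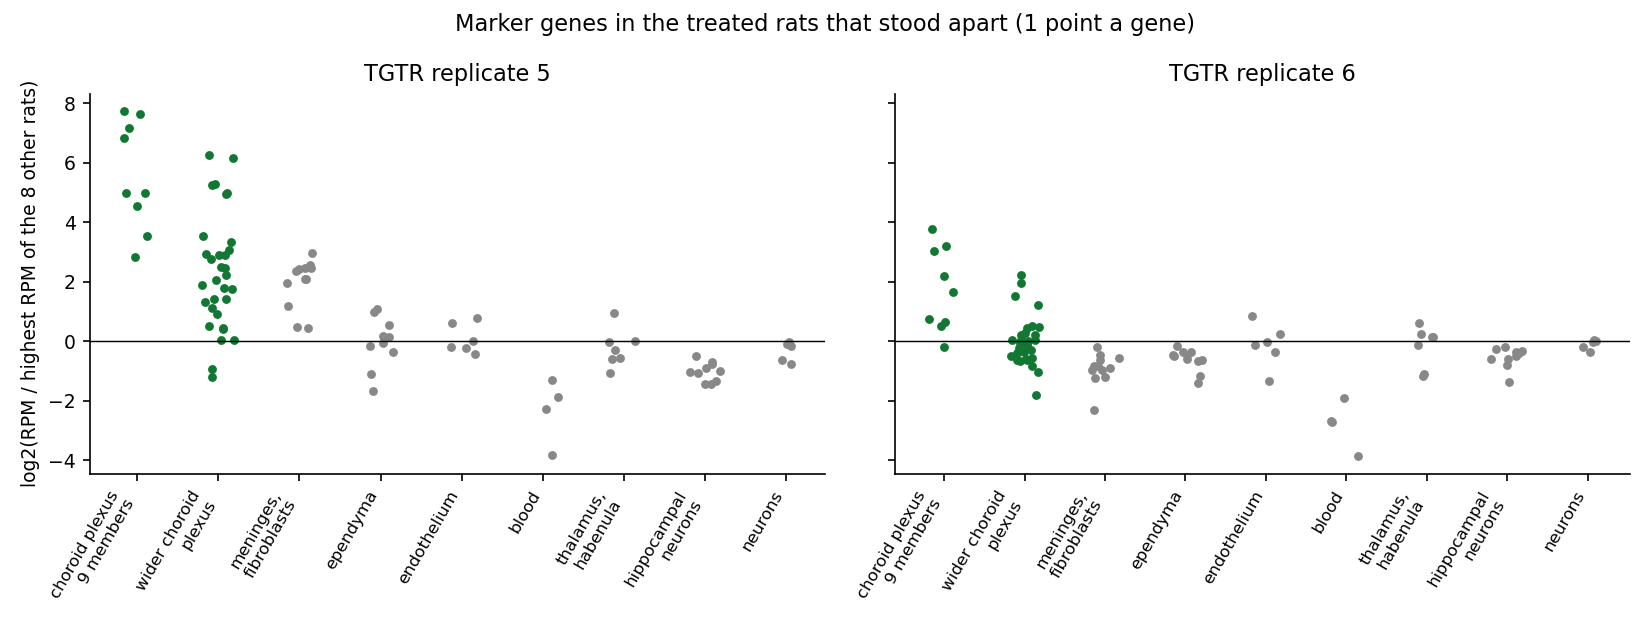
Marker genes in TGTR replicate 5 (left) and TGTR replicate 6 (right), as the log2 ratio of the rat's RPM to the highest RPM among the 8 rats other than those; 1 point is 1 gene, green for choroid plexus lists, and genes at 0 on either side are not drawn. All 9 members, 30 of 32 wider choroid plexus genes and 12 of 12 meningeal genes lie above 0 on the left, whereas on the right 8 of the 9 members and none of the meningeal genes do.

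A search was also made without any list. Among the 12029 genes of the treatment table that averaged 10 counts or more, 50 had RPM in TGTR replicate 5 at least 4-fold above each of the 9 other rats. The average includes replicate 5 itself, and members that reach 10 counts through that rat had to be among the 50. With the average taken over the 9 other rats, replicate 6 included, 5 members (Ttr, Kl, Folr1, Clic6 and Kcnj13) were in the search. Over the 8 rats without replicate 6 as well, 4 members averaged 10 counts, and Folr1 did not. The search with the average over 9 rats found 36 genes. They held those 5 members, 12 of the 24 wider choroid plexus genes searched and 8 of the 12 meningeal genes. Of the 11 in no list, Ptgds (prostaglandin D synthase, which is secreted into cerebrospinal fluid) was singled out after its value was seen, at 1214 RPM against at most 227 RPM. TGTR replicate 4 had 7 genes at least 4-fold above each other rat, Hbb among them, and none was a member. In the other 18 rats of both tables, TGTR replicate 6 included, 0 genes met the first rule. For replicate 6 that rule could not count any gene that was higher in replicate 5. Set against the 8 remaining rats alone, replicate 6 was above the highest by 13.7-fold for Sostdc1, 9.20-fold for Ttr, 8.11-fold for Kl and 4.63-fold for Tmem72. The other members ran from 0.877-fold (Folr1) to 3.19-fold (Clic6).

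The genes most like the members were chosen by Pearson's r between their log2(RPM + 1) and the mean of the members over the 10 rats of a table. In the treatment comparison the 12 highest of 12020 genes were F5, Slc4a5, Cldn2, Pkhd1l1, Ace, Slco1a5, Ahnak, Tinagl1, Pla2g5, Fam160a1, Mfrp and Kcne2, with r from 0.970 to 0.994. Of these, 5 were in the wider choroid plexus list. Because replicate 5 sets the mean of the members, the choice by r favours genes that are high in that rat. Genes also had to average 10 counts over the 10 rats, and Slco1a5, Pkhd1l1 and Pla2g5 did so only through replicate 5. Over the 8 rats other than replicates 5 and 6, r with the members ran from -0.29 (Fam160a1) to 0.849 (Mfrp). In the genotype comparison the 12 highest of 11355 genes, led by Eftud1, Gpr137b and Cxxc5, had r from 0.857 to 0.924, and none was in any marker list. In that table the mean of the members varied little, with an SD of 0.23 on the log2 scale between rats, against 1.55 in the treatment table.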

How the data were processed

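The authors deposited 2 pairs of tables, one for each comparison, with estimated counts from RSEM and a TMM-scaled signal in RPM (reads scaled to library size) for 17168 genes. The submitters' processing notes name bcl2fastq 2.17, Bowtie2 2.1.0, RSEM 1.2.15, the rn6 build and edgeR. No member had a fractional estimated count in any rat. Groups came from the labels, and nothing says how rats were batched. Rounded counts of all genes were tested in each table by edgeR 4.0.16 (quasi-likelihood, TMM, R 4.3.3) with Benjamini-Hochberg adjustment, after a run on simulated data. Genes were called at a fold change of 1.5 or more with an adjusted p below 0.05. RPM of single members were compared by exact permutation tests, and pairs of members by 100000 permutations of log2(RPM + 1), in scipy 1.17.1. No fitted fold change of a single member was given where both groups averaged 3 counts or fewer per library, and Sostdc1 between genotypes is given as a ratio of pooled counts with its counting interval. The text names the 9 members, App, genes of the marker lists and the 12 genes most like the members in each table among those averaging at least 10 counts. The members and lists were chosen with earlier results of these data known. Alternatives were other scalings, filters and tools (DESeq2 1.42.0, limma 3.58.1), a replicate block and leaving out rats.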

Additional observations from a re-analysis of the deposited data

Results flagged for a closer look

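For each of the 36 sets of a member and a group, the highest and the lowest rat were compared with their nearest neighbour by Dixon's ratio, and 14 values stood far from the rest of their group. Chance would give 1.8 in 36 independent sets, which these are not: 9 of the 14 values came from a single rat, TGTR replicate 5, once for every member. Its RPM was 2501 for Ttr, 163 for Kl, 19.2 for Folr1, 48.5 for Sostdc1, 54.0 for Tmem72, 9.09 for Otx2, 70.7 for Clic6, 40.0 for Kcnj13 and 27.2 for Aqp1, and the nearest TGTR rat was replicate 6 each time, at 1.46 (Folr1 and Aqp1) to 108 RPM (Ttr).

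The other 5 values were in the genotype comparison. Ttr stood at 11.7 RPM (92 counts) in TGNT replicate 3, against 2.87 RPM in the next rat of its group. Tmem72 stood at 1.40 RPM (11 counts) in WTNT replicate 3 against 0.171 RPM. Otx2 stood at 0.854 RPM (5 counts) in WTNT replicate 4 against 0.205 RPM and at 0.534 RPM (4 counts) in TGNT replicate 4 against 0.127 RPM. Sostdc1 stood at 0.127 RPM in TGNT replicate 3, which is a single count against 0 in the rest of the group.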

How the results depend on the processing

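Between genotypes 0 of 9 members were called under all 20 alternatives and between treatments under 21 of 22, the exception being the replicate block. Depth limits the members: a filter by expression left 1 member in the genotype and 5 in the treatment table, and 10 counts in every rat left 0 and 1. DESeq2 gave no adjusted p for 7 of the 9 members in the treatment table, and this did not follow depth. Ttr, with 26153 counts in TGTR, had none, whereas Otx2, with 121, had one. The reason was not tested. The causes of the shifts below were not tested, except where fewer rats or fewer members are the shift.

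Between genotypes, all genes called were 4 by edgeR's exact test and 4 by its likelihood ratio test. Members at an unadjusted p under 0.05 were 0 with the expression filter, 2 by the likelihood ratio test and 1 to 3 when single rats were left out (2 without TGNT replicate 3, 3 without WTNT replicate 3, 2 without WTNT replicate 4). The median log2 fold change of the members was -0.67 with the filter (1 member), -0.49 by limma on log2(RPM + 0.1) and -0.56 to -0.080 when single rats were left out. That of Kl was 0.0052 by limma on log2(RPM + 0.1) and -0.31 to 0.040 over rats left out, and that of Clic6 -0.87 to 0.089. The sign of the RPM difference turned when 1 rat was left out for Kl (exact permutation p 0.325 to 0.944), Tmem72 (0.0476 to 0.984), Otx2 (0.238 to 0.952) and Clic6 (0.119 to 0.992). Correlated pairs were 0 by Spearman's rho, 0 without the rats farthest in Ttr and 0 after group means were subtracted.

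Between treatments, genes called were 3 by DESeq2, 4 by the exact test and 5 by the likelihood ratio test. Members at an unadjusted p under 0.05 were 3 with the expression filter, 1 with 10 counts in every rat, 1 by DESeq2, 0 by limma with either pseudocount, 0 with robust estimation, 3 without TGTR replicates 5 and 6, and 1 to 7 when single rats were left out (2 without TGNT replicate 2, 1 without TGTR replicate 5). Their median log2 fold change was 6.06 with 10 counts in every rat (1 member), 0.95 and 1.26 by limma on log2(RPM + 1) and log2(RPM + 0.1), -0.30 without replicates 5 and 6, and 1.36 to 4.78 over single rats left out. The log2 fold change of Otx2 was -0.25 by limma on log2(RPM + 0.1). Without replicates 5 and 6 it was -2.56 for Ttr, -0.30 for Kl, -0.34 for Folr1, -2.40 for Otx2 and -1.19 for Clic6. Over single rats left out it was -0.045 to 2.63 for Folr1 and -0.40 to 2.04 for Otx2, and the exact permutation p of their RPM difference was 0.488 to 0.897 and 0.675 to 0.992. Correlated pairs were 5 by Spearman's rho and 0 without replicates 5 and 6.

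The groups share replicate numbers, but the numbers did not pair the rats: deviations of same-numbered rats correlated at -0.19 to 0.303 between genotypes and at -0.53 to 0.0928 between treatments, and not every rat correlated best with its own number. With the replicate block the treatment comparison called 1 gene, Ttr, so 1 member, lower in TGTR (log2 fold change -2.55, edgeR adjusted p = 0.00508). Replicates 5 and 6 have no partner in that fit and carry no weight in its fold changes. Members at an unadjusted p under 0.05 were then 3, against 409 of all 17168 genes. The median of the members was -0.28, and Kl, Folr1, Otx2 and Clic6 stood at -0.28, -0.33, -2.37 and -1.13.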
